A study of Mus musculus with 6 samples.

Results

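A set of 10 p53 target genes from outside the core of the apoptosis program was followed in mouse dermal fibroblasts with and without stabilized β-catenin. The 10 genes, Mdm2, Trp53inp1, Ccng1, Zmat3, Sesn1, Sesn2, Phlda3, Tnfrsf10b, Eda2r and Gdf15, were listed by name as known p53 targets and read by symbol from a table of 41126 genes. RNA-seq counted the RNA fragments of each gene in 6 libraries, 3 control (CTRL) and 3 gain of function (GOF), with replicates numbered 0 to 2. All cultures were dermal fibroblasts from mice of mixed CD1 and C57Bl6 background at postnatal day 4 (P4). By the sample labels, CTRL cultures had the genotype AdGFP; +/+, an adenovirus that carries GFP. GOF cultures were AdCre; Ctnnb1Δex3/+, in which Cre recombinase from an adenovirus removes exon 3 of 1 Ctnnb1 allele, so that β-catenin escapes degradation. The labels' treatment text gives every culture adenovirus-Cre at 366 to 500 MOI for 6 h in medium without serum. The 6 h are the time of infection, and by the paper the RNA was profiled days afterwards. MOI is the number of virus particles able to infect per cell. The study's methods give the controls the GFP virus at 366 MOI and the Ctnnb1 allele as well. On these points the sources differ.

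The cultures came from 4 animals, each grown separately, and 2 animals gave a culture to both groups. CTRL replicate 2 and GOF replicate 0 came from one of these animals, and CTRL replicate 0 and GOF replicate 2 from the other. Both cultures of such an animal started from the same inherited Ctnnb1 alleles. The label +/+ therefore cannot be the inherited genotype of CTRL replicates 0 and 2. Cre would have recombined the allele in CTRL replicates 0 and 2. Axin2, a direct target of β-catenin with values given below, was far lower in every CTRL than in every GOF library. For CTRL replicate 1, from an animal without a GOF culture, the GFP virus alone rests on genotype label and methods. No library is thus known to have held cells given Cre without the recombined Ctnnb1 allele. Cre recombinase can cut genomic DNA at sites that resemble its own, and p53 responds to cut DNA. Effects of Cre and of β-catenin therefore cannot be told apart here.

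The transcription factor p53 is held at low levels in unstressed cells because Mdm2, which p53 itself induces, marks it for degradation. DNA damage and other stresses release p53, which then binds paired 10-base elements near its target genes and raises their transcription. Many targets outside apoptosis slow the cell cycle, restrain growth signals, repair DNA or feed back on p53, and dermal fibroblasts are a common cell type for the study of this response.

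The DNA near the starts of the listed genes was read first, because it carries the element through which p53 acts. The consensus p53 response element, 2 abutting 10-base elements, was searched within 2000 bases of each RefSeq start on GRCm38.p6 (mm10). The C and the G of each 4-base core were kept, and mismatches over the 20 bases were counted. The limits on mismatches were chosen after matches had been seen. Of the 10 genes, 7 have an entry in the table of starts used here, while Tnfrsf10b, Trp53inp1 and Zmat3 have none. With at most 1 mismatch, Ccng1 and Gdf15 held a match, as did 0.788% of 27025 genes. Eda2r was added at 2 mismatches, where 4.52% of genes held one. Mdm2 and Sesn1 were added at 3 mismatches, where 19.2% of genes did. Sesn2 and Phlda3 held none, which says only that these letters are not in this window. The best match of each gene is printed below with that of Cdkn1a, the best known p53 target, for comparison. They are written 5′ to 3′ on the strand of the gene, with the core of each 10-base element in capitals.
Ccng1, upstream: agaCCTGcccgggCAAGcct
Ccng1, intron: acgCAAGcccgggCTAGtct
Gdf15: tgaCTTGcctgaaCTTGcct
Eda2r: gggCAAGtccgggCCTGtgt
Mdm2: ggtCAAGttgggaCACGtcc
Sesn1: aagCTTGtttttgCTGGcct
Cdkn1a: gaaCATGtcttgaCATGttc

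The first Ccng1 match, at chr11:40755462-40755481 on the minus strand, lies 195 bases upstream of the start and outside the annotated gene. The other Ccng1 match, at chr11:40754936-40754955 (minus), lies in an intron 331 bases after the start. The Gdf15 match, at chr8:70631966-70631985 (minus), is 471 bases after the first of its starts and in an exon of 1 of 2 transcripts. The Eda2r match, at chrX:97376534-97376553 (minus), is intronic, 656 bases after the start. The Mdm2 match, at chr10:117710105-117710124 (minus), is 634 bases after the start. It lies within 6 of 9 transcripts and overlaps an exon in 1. The Sesn1 match, at chr10:41887266-41887285 (plus), lies 173 bases upstream of the second of its starts, inside an intron of 1 transcript. The Cdkn1a match, at chr17:29090928-29090947 (plus), lies 51 bases upstream of the first of its starts, with another start further downstream. Binding of p53 was not measured, so a match is a description of the sequence.

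Levels are given as FPKM, the fragments relative to transcript length and library size, which the authors' Cuffdiff run scaled between libraries. Differences between groups are log2 fold changes of GOF minus CTRL, called log2 differences here and given with their standard error (SE), from edgeR's quasi-likelihood test on the estimated fragment counts, fitted to all 15462 genes that passed a filter on low counts. A gene rose or fell where its p, adjusted by Benjamini-Hochberg over these genes, was under 0.05. With 3 against 3 libraries, the exact permutation test on FPKM cannot give a two-sided p under 0.1. The libraries held 35980831 to 42834467 fragments each. Ctnnb1, the targeted gene, had a log2 difference of -0.05 (adjusted p = 0.844) over its whole length, which does not show the loss of an exon. Axin2, a direct β-catenin target, was at 0.136 to 0.177 FPKM in CTRL and at 14.4 to 19.2 FPKM in GOF libraries.

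Of the 10 listed genes, all passed the filter, 3 rose in GOF cultures (Mdm2, Tnfrsf10b and Ccng1), 1 fell (Sesn1) and 6 did not pass the test. Over all genes tested, 21.2% passed in either direction, 11.1% rose and 10.2% fell. The 4 genes that passed also exceeded a fold change of 2, as 12.3% of all genes tested did. The fitted difference was above 0 for 8 of the 10 genes, and its median was 0.36 on the log2 scale, beside -0.016 for all genes tested. For 5 genes, these 4 and Zmat3, the CTRL and GOF ranges of FPKM were separate, which held for 39.5% of all genes tested.

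**Figure D1:**
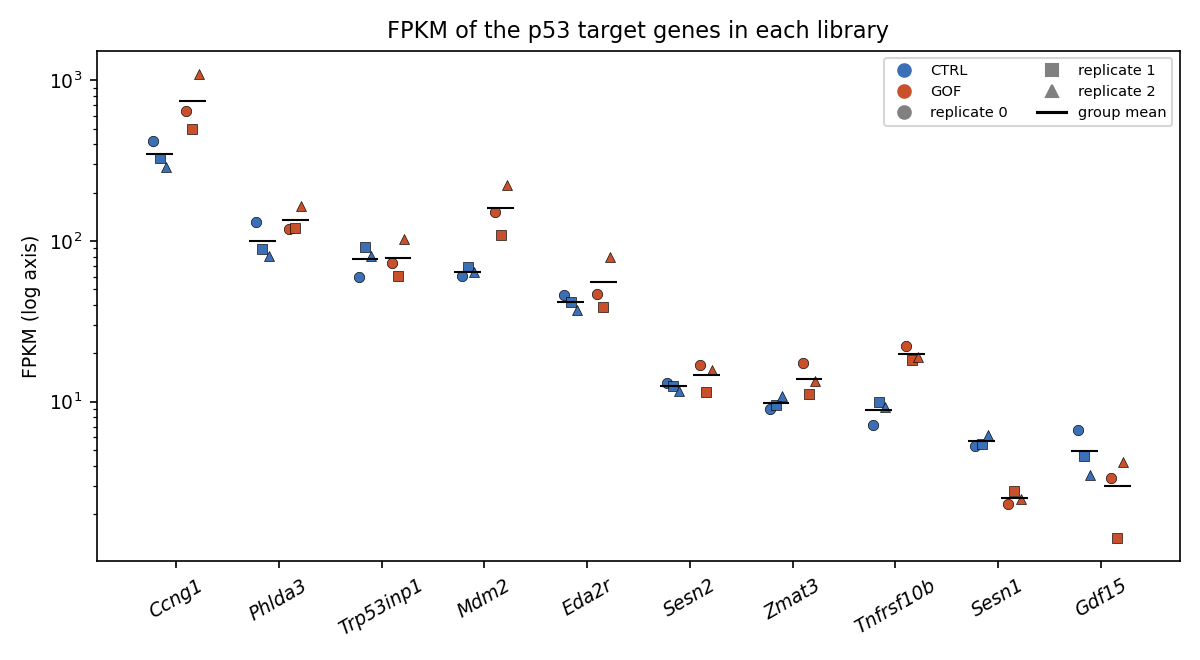
FPKM (log axis) of the 10 listed p53 targets in each of the 6 libraries, with CTRL in blue, GOF in red, a marker shape for each replicate and a bar at the group mean (n = 3). Ccng1 has the highest level in both groups, the GOF points of Mdm2, Ccng1, Tnfrsf10b and Zmat3 lie above all CTRL points, and those of Sesn1 lie below them.

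Mdm2, the ubiquitin ligase that targets p53 for degradation, showed the largest fitted rise of the 10 genes. The gene lies at chr10:117688875-117710758 on the minus strand. Its FPKM was 61.0, 69.1 and 63.8 in CTRL replicates 0, 1 and 2, and 152, 109 and 225 in GOF replicates 0, 1 and 2. Every GOF library was above every CTRL library, and the GOF libraries were spread far more widely than the CTRL libraries. The mean rose from 64.6 ± 4.14 to 162 ± 58.5 FPKM (SD, n = 3 per group), a fitted fold change of 2.62. The log2 difference was 1.39 (SE 0.22, 95% interval 0.88 to 1.90, adjusted p = 0.00487). Within the animals that gave both cultures, GOF over CTRL was 2.38 in one and 3.68 in the other. Mdm2 passed the test under all 15 alternative settings, with log2 differences of 1.13 to 1.60.

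Trp53inp1, a stress-induced partner of p53 that also takes part in autophagy, had almost the same mean level in both groups. It lies at chr4:11156431-11174379 on the plus strand. Its FPKM was 59.7, 91.7 and 80.7 in the CTRL libraries and 72.8, 60.6 and 103 in the GOF libraries, in replicate order. The groups overlapped, with GOF replicate 2 above all CTRL libraries and CTRL replicate 0 below all GOF libraries. The means were 77.4 ± 16.2 and 78.8 ± 21.8 FPKM (SD, n = 3 per group), and the log2 difference was 0.04 (95% interval -0.38 to 0.46, adjusted p = 0.909). In the animals with both cultures the ratio of GOF to CTRL was 0.902 and 1.72, in opposite directions. The sign of the fitted difference turned without CTRL replicate 0 (-0.10), without GOF replicate 2 (-0.10), and with upper-quartile or library-total scaling (-0.02 each).

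Ccng1 encodes cyclin G1, which brings the phosphatase PP2A to Mdm2, and was the most abundant of the 10 genes per length. It lies at chr11:40748552-40755311 on the minus strand. Its FPKM was 420, 331 and 290 in the CTRL libraries and 644, 497 and 1096 in the GOF libraries, in replicate order. The lowest GOF library was above the highest CTRL library, and GOF replicate 2 stood above the other GOF libraries. The mean rose from 347 ± 66.6 to 746 ± 312 FPKM (SD, n = 3 per group), with a log2 difference of 1.08 (SE 0.26, 95% interval 0.46 to 1.69, adjusted p = 0.0258). GOF over CTRL was 2.22 and 2.61 in the animals with both cultures, and a replicate block by animal gave an adjusted p of 0.00538. That block takes its difference from these animals alone, without CTRL replicate 1 and GOF replicate 1. The call was lost without CTRL replicate 1 (adjusted p = 0.0925), CTRL replicate 2 (0.0834) or GOF replicate 0 (0.0654), and with limma on log2(FPKM + 1) (0.0544). Without GOF replicate 2 the log2 difference was 0.80 (adjusted p = 0.0456), under a fold change of 2.

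Zmat3, a zinc finger protein that binds RNA, was higher in every GOF library but did not pass the test. It lies at chr3:32334792-32366014 on the minus strand. Its FPKM was 9.07, 9.49 and 10.8 in the CTRL libraries and 17.3, 11.1 and 13.4 in the GOF libraries, in replicate order. The groups did not overlap, although GOF replicate 1 was close to CTRL replicate 2. The means were 9.79 ± 0.905 and 13.9 ± 3.11 FPKM (SD, n = 3 per group), and the log2 difference was 0.49 (95% interval 0.05 to 0.94, unadjusted p = 0.0344, adjusted p = 0.111). Without GOF replicate 2 it passed the test, with a log2 difference of 0.64 (adjusted p = 0.0487).

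**Figure D2:**
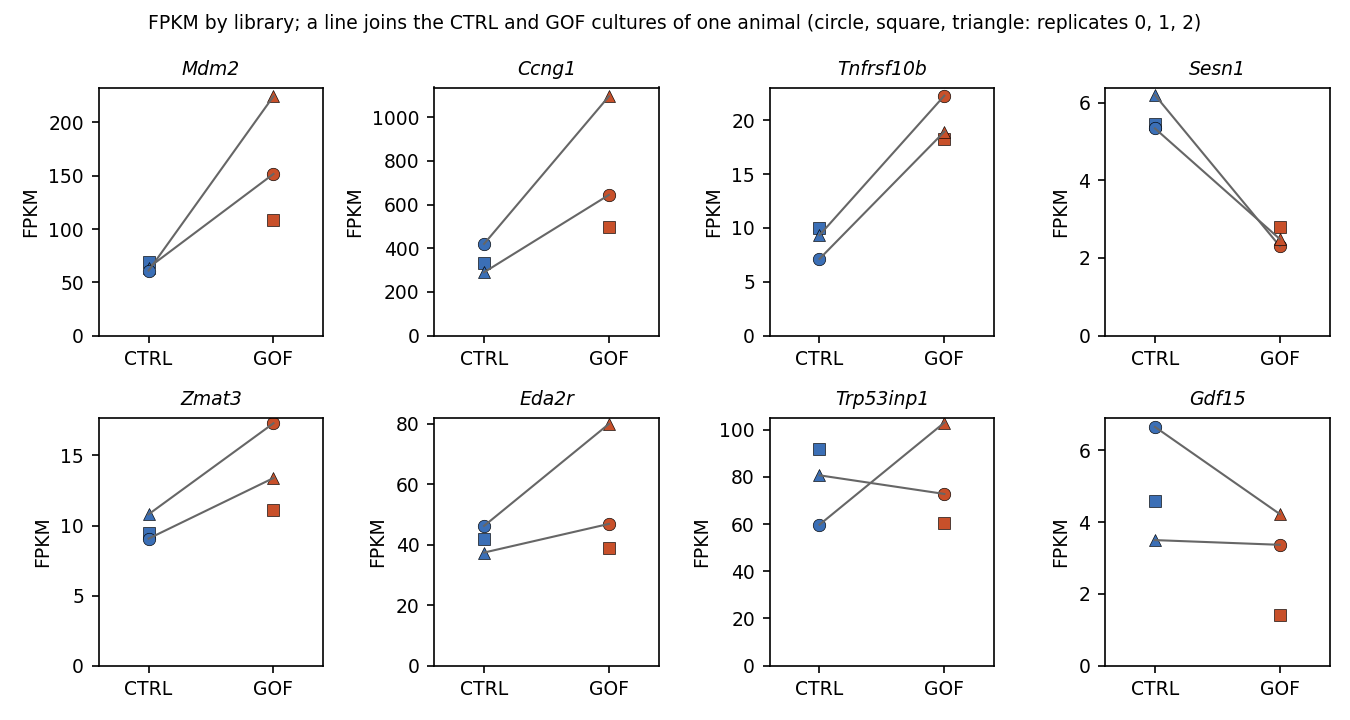
FPKM of 8 of the listed genes by library, on axes that start at 0, with a line that joins the CTRL and the GOF culture of one animal and circles, squares and triangles for replicates 0, 1 and 2. Both lines rise for Mdm2, Ccng1, Tnfrsf10b, Zmat3 and Eda2r, both fall for Sesn1 and Gdf15, and for Trp53inp1 they cross.

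The sestrins restrain the growth kinase mTORC1 by binding the GATOR2 complex and also limit oxidative damage. Of the listed members of the family 1 fell and the other did not pass the test. Sesn1, at chr10:41809935-41908424 on the plus strand, was the only listed gene that fell. Its FPKM was 5.33, 5.45 and 6.19 in the CTRL libraries and 2.30, 2.79 and 2.49 in the GOF libraries, in replicate order. All GOF libraries were below all CTRL libraries, with little spread in either group. The mean fell from 5.66 ± 0.467 to 2.53 ± 0.247 FPKM (SD, n = 3 per group), a log2 difference of -1.09 (SE 0.15, 95% interval -1.44 to -0.73, adjusted p = 0.00303). GOF over CTRL was 0.372 and 0.466 in the animals with both cultures. It passed under all 15 alternatives, with log2 differences of -1.22 to -0.92.

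Sesn2, at chr4:132492032-132510501 on the minus strand, was at 13.1, 12.6 and 11.7 FPKM in the CTRL libraries and at 17.0, 11.5 and 15.8 FPKM in the GOF libraries. GOF replicate 1 lay below all CTRL libraries and the other GOF libraries above them. The log2 difference was 0.21 (95% interval -0.24 to 0.66, adjusted p = 0.483). A gene annotated as an antisense RNA, Gm12981, overlaps 6089 bases of Sesn2 on the same strand, with a mean of 24.5 fragments per library beside 1775 for Sesn2. Sesn3, the remaining sestrin and not among the 10 genes, had a log2 difference of -0.04 (adjusted p = 0.957). None of the 8 GATOR genes tested passed with edgeR, and at an unadjusted p under 0.05 the count was 2, both lower in GOF. Seh1l, a GATOR2 subunit, passed with upper-quartile scaling (adjusted p = 0.0427) and library totals (0.0454), and none passed with DESeq2.

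Phlda3, a short protein that competes with the kinase Akt for membrane lipids, was the second most abundant of the listed genes per length in CTRL libraries. It lies at chr1:135766119-135769136 on the plus strand. Its FPKM was 131, 89.8 and 80.6 in the CTRL libraries and 118, 121 and 166 in the GOF libraries, in replicate order. CTRL replicate 0 exceeded GOF replicates 0 and 1, so the groups overlapped. The means were 101 ± 27.0 and 135 ± 26.7 FPKM (SD, n = 3 per group), with a log2 difference of 0.37 (95% interval -0.22 to 0.97, adjusted p = 0.342). GOF over CTRL was 1.46 and 1.26 in the animals with both cultures, and with the animal as a block the adjusted p was 0.0542.

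Among the cell surface receptors, Tnfrsf10b rose and Eda2r did not pass the test. Tnfrsf10b is the death receptor for the ligand TRAIL in the mouse. It lies at chr14:69767472-69784411 on the plus strand. Its FPKM was 7.12, 10.0 and 9.32 in the CTRL libraries and 22.3, 18.2 and 18.9 in the GOF libraries, in replicate order. The groups were far apart relative to their spread, with no GOF library under 18.2 FPKM. The mean rose from 8.83 ± 1.52 to 19.8 ± 2.15 FPKM (SD, n = 3 per group), a log2 difference of 1.15 (SE 0.16, 95% interval 0.76 to 1.53, adjusted p = 0.00341). GOF over CTRL was 2.39 and 2.66 in the animals with both cultures. It passed under all 15 alternatives, with log2 differences of 1.01 to 1.32.

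Eda2r, the receptor for ectodysplasin A2 on the X chromosome (chrX:97333840-97377216, minus strand), was at 46.2, 41.9 and 37.4 FPKM in the CTRL libraries. In the GOF libraries it was at 46.9, 38.9 and 79.9 FPKM. GOF replicate 2 stood apart, and the other GOF libraries lay close to or within the CTRL range. The log2 difference was 0.35 (95% interval -0.16 to 0.86, adjusted p = 0.299), and it was 0.064 without GOF replicate 2. With the animal as a block the adjusted p was 0.0550.

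Gdf15, a secreted stress cytokine of the TGF-β family that acts on the hindbrain receptor Gfral, had the lowest level per length of the 10 genes in CTRL libraries. It lies at chr8:70629393-70632456 on the minus strand. Its FPKM was 6.66, 4.59 and 3.50 in the CTRL libraries and 3.37, 1.42 and 4.23 in the GOF libraries, in replicate order. GOF replicate 2 lay inside the CTRL range and the others below it. The means were 4.92 ± 1.60 and 3.01 ± 1.44 FPKM (SD, n = 3 per group), with a log2 difference of -0.73 (95% interval -1.85 to 0.38, adjusted p = 0.319). These values rest on 45 to 234 fragments per library, the fewest of the 10 genes.

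In CTRL libraries, Ccng1 was followed by Phlda3, Trp53inp1, Mdm2, Eda2r, Sesn2, Zmat3, Tnfrsf10b, Sesn1 and Gdf15 by mean FPKM. Ranges overlapped between Phlda3 and Trp53inp1, Trp53inp1 and Mdm2, Zmat3 and Tnfrsf10b, and Sesn1 and Gdf15. In GOF libraries Mdm2 stood second, overlapping Phlda3, and Tnfrsf10b stood sixth, above Sesn2 and Zmat3. Within the GOF group, replicate 2 was the highest library for 6 of the 10 genes and replicate 1 the lowest for 8. Over all libraries, GOF replicate 2 was the highest for 5 genes and GOF replicate 0 for 3. Neither CTRL replicate 1 nor GOF replicate 1 was highest for any gene.

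The gene for p53 itself was variable. Trp53 was at 7.18, 10.4 and 12.6 FPKM in the CTRL libraries and at 25.3, 19.4 and 8.14 FPKM in the GOF libraries, in replicate order. GOF replicate 2, which had the highest Mdm2 and Ccng1 levels, had the lowest Trp53 level of the GOF libraries. The log2 difference of Trp53 was 0.75 (SE 0.37, adjusted p = 0.199), and without GOF replicate 2 it passed, at 1.08 (adjusted p = 0.0270). Mdm4, the relative of Mdm2 that inhibits p53, had a log2 difference of -0.05 (adjusted p = 0.894).

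Of 16 tested genes for p53 and its regulators, 2 fell and none rose with edgeR, and the median log2 difference was -0.0027. At an unadjusted p under 0.05, 2 were higher and 2 lower. The genes that fell encode the DNA damage kinases Atm, from 7.30 ± 0.816 to 4.44 ± 0.0910 FPKM, and Atr, from 8.72 ± 1.33 to 5.49 ± 0.829 FPKM (SD, n = 3 per group). Their adjusted p was 0.0145 and 0.0113. Neither passed without CTRL replicate 1, CTRL replicate 2 or GOF replicate 0, where the adjusted p was 0.0503 to 0.0653. Cdkn2a, whose products include the Mdm2 inhibitor Arf, was read as a whole gene, so its transcripts are not told apart. It was at 35.8 to 56.3 FPKM in CTRL and at 56.6 to 197 FPKM in GOF libraries. It did not pass (log2 difference 1.50, adjusted p = 0.0627), although it did with the animal as a block (adjusted p = 0.000449), with DESeq2 (0.00388), with no filter on low counts (0.0282) and without GOF replicate 1 (0.0145). It is named here because of its values.

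Of 36 other p53 targets, all tested, 13 rose, 1 fell and 22 did not pass, with a median log2 difference of 0.44. Arrest, repair and metabolism targets made up 24 of these, of which 9 rose and 1 fell, with a median of 0.41. Over all genes tested, 11.1% rose and 10.2% fell, with a median of -0.016. Cdkn1a, the inhibitor of cyclin-dependent kinases known as p21, was at 92.9, 77.1 and 65.3 FPKM in the CTRL libraries and at 175, 141 and 168 FPKM in the GOF libraries. Its log2 difference was 1.06 (SE 0.17, adjusted p = 0.00537). Polk, a DNA polymerase that copies past damaged bases, and Ercc5, a nuclease of nucleotide excision repair, rose by 0.90 and 0.87 on the log2 scale (adjusted p = 0.00389 and 0.00522). Gadd45a, a stress-induced gene that acts in arrest and repair, fell from 26.3 ± 0.635 to 13.2 ± 2.23 FPKM (SD, n = 3 per group), a log2 difference of -1.02 (adjusted p = 0.00580). Cdkn1a, Polk, Ercc5 and Gadd45a passed under all 15 alternatives.

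Of the 12 apoptosis targets, 4 rose and none fell with edgeR, with a median log2 difference of 0.50 and none lower at an unadjusted p under 0.05. Over all genes tested, 11.1% rose in the same fit. Pmaip1, a BH3-only protein also called Noxa, rose from 9.79 ± 1.40 to 30.8 ± 7.59 FPKM (SD, n = 3 per group), a log2 difference of 1.66 (adjusted p = 0.000945). Pidd1, a scaffold for caspase activation, rose by 1.71 (adjusted p = 0.00371), and Perp, a desmosome-associated membrane protein, by 3.14 on the log2 scale (adjusted p = 0.00574). Triap1, an inhibitor of apoptosis, rose by 0.67 on the log2 scale (adjusted p = 0.0102) but did not pass without CTRL replicate 1 (0.0533). With the animal as a replicate block, 7 of the 12 apoptosis targets rose.

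**Figure D3:**
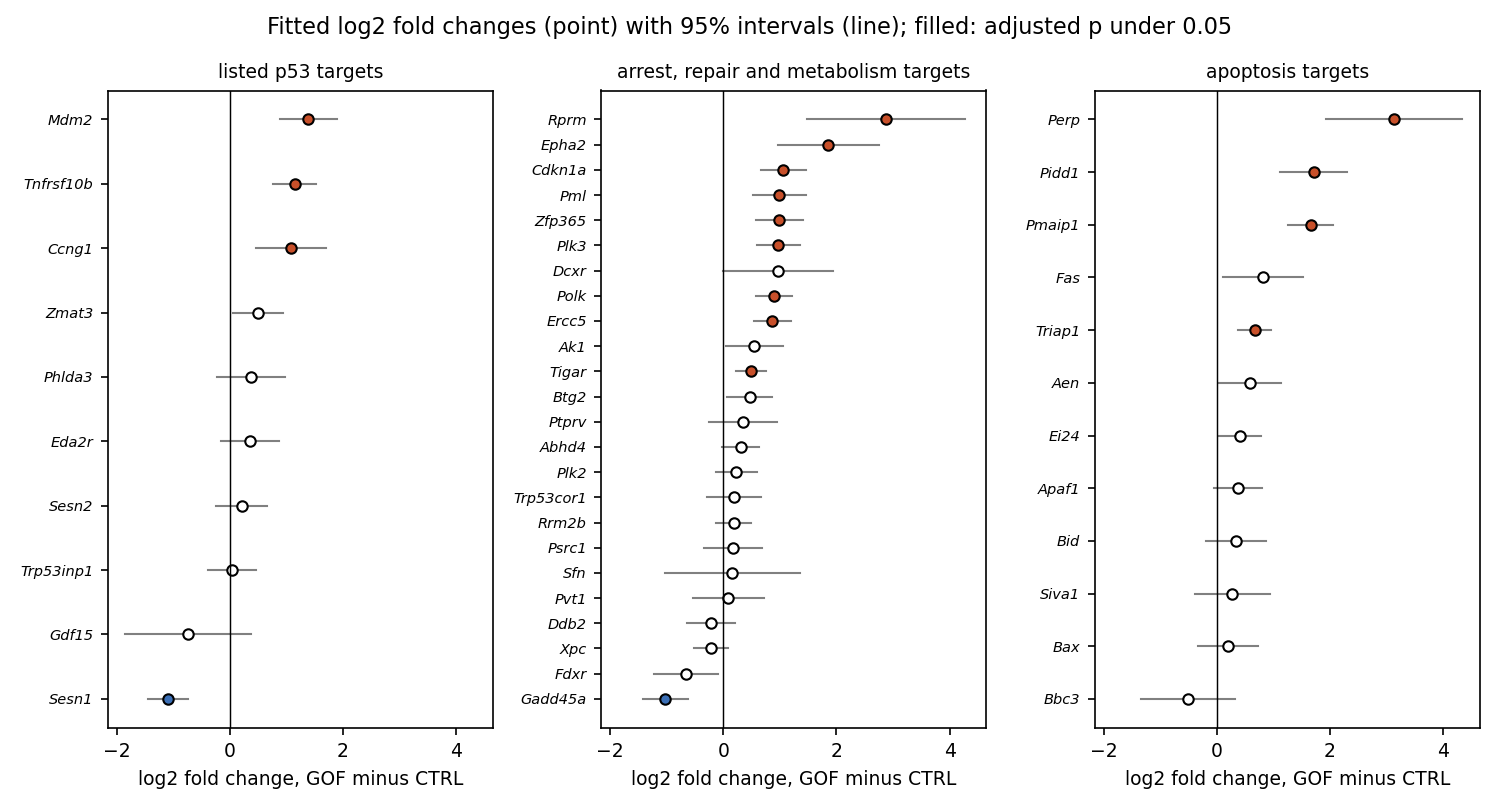
Fitted log2 fold change of GOF minus CTRL (points) with 95% intervals (lines) for the 10 listed p53 targets, 24 arrest, repair and metabolism targets and 12 apoptosis targets, with filled points where the adjusted p was under 0.05. Of the 14 other targets past the test, Gadd45a lies below 0, and among the listed genes Sesn1 does.

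Close relatives of the listed genes did not follow a shared direction. Phlda1 rose from 1.11 ± 0.246 to 3.26 ± 0.613 FPKM, while Ccng2, a cyclin that marks cells leaving the cycle, fell from 28.3 ± 3.94 to 17.2 ± 0.847 FPKM (SD, n = 3 per group). Their log2 differences were 1.65 (adjusted p = 0.00326) and -0.76 (adjusted p = 0.00602), where those of Phlda3 and Ccng1 were 0.37 and 1.08. Trp53inp2 and Zmat1 did not pass, with log2 differences of 0.13 and -0.38. Phlda2 was under the filter on low counts.

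The partners of the listed receptors and ligand were low or did not pass. Tnfsf10, which encodes TRAIL, Gfral and Edar, the receptor for ectodysplasin A1, were each below 0.1 FPKM in every library and were not tested. Of 8 tested partners, 1 rose. This was Edaradd, the adaptor of Edar, with a log2 difference of 2.39 (adjusted p = 0.0259) at means of 0.0110 and 0.0596 FPKM. Edaradd did not pass with either limma fit, with the animal as a block (0.0749) or without any 1 of CTRL replicates 0 and 1 and GOF replicates 0 and 1, where the adjusted p was 0.0593 to 0.0993. Eda, the gene for ectodysplasin, had a log2 difference of 0.80 (adjusted p = 0.0884), and it passed with the animal as a block (1.06, adjusted p = 0.0249) and with DESeq2 (0.0370). Casp8, Fadd, Ripk1, Traf2, Traf6 and Ret had log2 differences between -0.27 and 0.07.

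Genes of dividing cells were read as a further measure of the same cultures. Of 15 such genes 12 fell and none rose with edgeR or at an unadjusted p under 0.05, with a median log2 difference of -1.32. Over all genes tested, 10.2% fell at an adjusted p under 0.05. Mki67 was at 6.89, 5.27 and 6.30 FPKM in the CTRL libraries and at 1.94, 1.97 and 2.05 FPKM in the GOF libraries (adjusted p = 0.000298). Without GOF replicate 0 the count was 6. In bulk samples such as these, fewer dividing cells and less RNA per cell cannot be told apart. The part of the change in dividing cells in the levels of the p53 targets was not tested.

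Markers of dermal fibroblasts were abundant, with summed FPKM of 3120 to 4000 in CTRL and 2605 to 3259 in GOF libraries. Of these 10 markers Vim rose and Dcn and Col1a2 fell. Vim and Col1a2 each lost the call without CTRL replicate 1, CTRL replicate 2 or GOF replicate 2, Vim also without GOF replicate 0 and Col1a2 without GOF replicate 1 (adjusted p = 0.0569 to 0.116). With the animal as a block 4 fell, Pdgfra (log2 difference -1.18, adjusted p = 0.00240) and Lum (-2.42, adjusted p = 0.00916) being added. Without CTRL replicate 0, 3 fell, and without GOF replicate 2, 2 rose (Twist2 and Thy1). The summed FPKM of 8 keratinocyte markers was at most 0.562 in any library, Dsg3 was at 0 in all and Krt14 at 0 in all but GOF replicate 2. Of 5 skeletal muscle markers, the sum was at most 1.60 FPKM, with Pax7 at 0 in all libraries. Of 5 endothelium markers Kdr rose, and the sums were 2.39 to 2.56 in CTRL and 2.53 to 5.82 FPKM in GOF libraries. Of 5 macrophage markers Csf1r rose, with sums of 10.8 to 19.3 and 8.55 to 24.8 FPKM, and with the animal as a block Lyz2 was lower (adjusted p = 0.0143). Of 7 melanocyte and Schwann markers Mlana fell, though not without CTRL replicate 1 (0.0596) or GOF replicate 0 (0.0744), with sums of 7.37 to 9.62 and 1.82 to 4.72 FPKM. Of 4 adipocyte markers Fabp4 fell, with sums of 7.18 to 8.91 and 1.80 to 3.17 FPKM, and Lep was at 0 in all libraries. None of 5 pericyte markers passed with edgeR, and 1 was higher at an unadjusted p under 0.05, with sums of 14.0 to 24.0 and 16.9 to 31.6 FPKM. Without CTRL replicate 0, 3 of them (Kcnj8, Abcc9 and Cspg4) were lower (adjusted p = 0.0156 to 0.0497). Myh11 was higher with the animal as a block (0.00866), with DESeq2 (0.0271) and without GOF replicate 1 (0.0272). The part of these cells in the levels of the p53 targets was not tested.

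**Figure D4:**
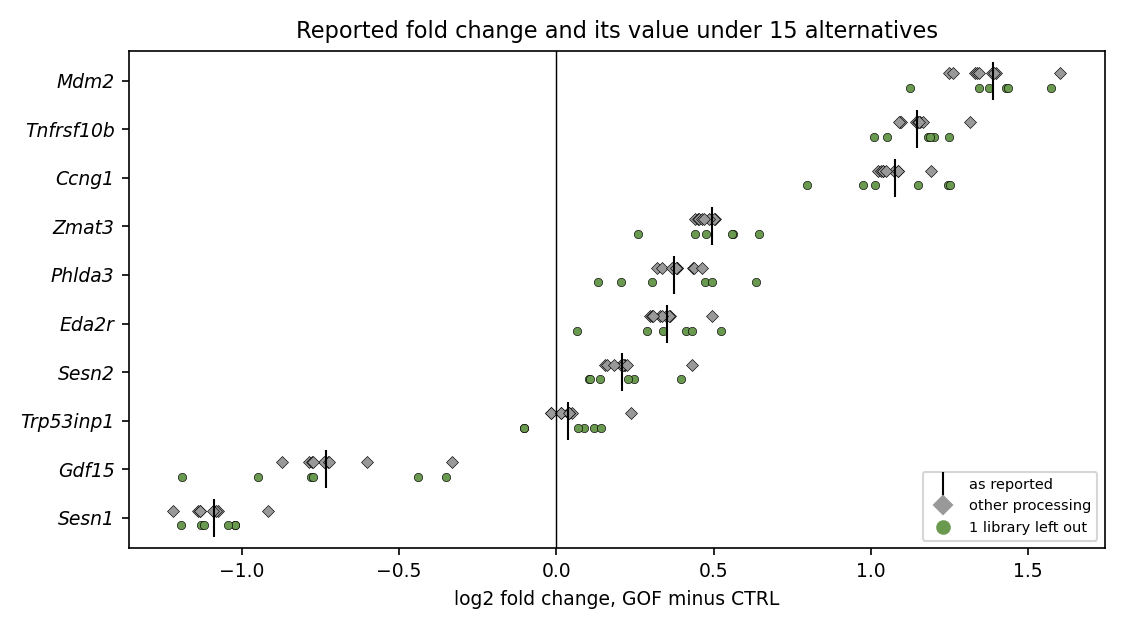
Log2 fold change of GOF minus CTRL for each of the 10 listed genes as reported (black line), under 9 other ways of processing (grey) and with each of the 6 libraries left out (green). Mdm2, Tnfrsf10b, Ccng1 and Sesn1 keep their sides of 0 under all 15 settings, whereas the points of Trp53inp1 fall on both sides.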

How the data were processed

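RNA-seq was performed on 3 CTRL and 3 GOF cultures. The authors mapped paired-end reads of a stranded kit to mm10 with TopHat and ran Cuffdiff. Whether the counting used the strand is not given in the sources used here. The deposited estimated counts are unscaled fragments per gene and library from Cuffdiff. The deposited FPKM values were scaled by the authors by transcript length and between libraries. A further 3 columns of per-library values and a separate table of lncRNAs were not used.

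Gene identifiers were matched to GENCODE M21 (97.9% matched), and 32 genes with a failed estimate were left out. Estimated counts, 4.95% of which were not whole, were rounded and tested in R 4.3.3 with edgeR 4.0.16 (TMM, filterByExpr, quasi-likelihood test, Benjamini-Hochberg adjustment, group as the only term). Thresholds were an adjusted p under 0.05 and, where stated, a fold change over 2. An exact permutation test was also run on the FPKM of single genes, which gave p = 0.1 for each gene whose groups did not overlap. The script was tested on simulated data. Depth was 35980831 to 42834467 fragments per library. The p-values measure the spread between these cultures. With group as the only term, the test treats the cultures as independent, although 2 animals gave a culture to both groups.

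Alternatives were DESeq2 1.42.0, upper-quartile and library-total scaling, no filter, a minimum FPKM of 1 in 3 libraries, limma 3.58.1 on log2(FPKM + 1) and log2(FPKM + 0.1), fits without each of the 6 libraries, and a replicate block by either label number or animal. In the block by animal, CTRL replicate 1 and GOF replicate 1 have no partner. Its differences therefore rest on the 2 animals that gave both cultures. Deviations from the group means correlated positively between cultures of the same animal (r = 0.451 and 0.406 over 15462 genes). Between cultures of the same label number, r was -0.401, 0.0551 and -0.436. Deviations within a group cancel, so a positive r for some pairs of cultures lowers that of others. The pairing by animal was read from the labels' animal names, and the label numbers do not pair the cultures.

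The genes and gene lists were chosen with earlier results of these data known. Named were the 10 genes, Trp53, Mdm4, Cdkn1a, Ctnnb1, Axin2 and Nkd2, the up to 4 genes with the smallest adjusted p among those past the threshold in each further list, and all tested relatives and partners. The lists were p53 and its regulators, other p53 targets in arrest, repair and metabolism or in apoptosis, relatives, partners, GATOR complexes, amino acid and unfolded protein stress, dividing cells and markers of 8 cell types. Promoter and start positions are from RefSeq on GRCm38.p6.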

Additional observations from a re-analysis of the deposited data

How the results depend on the processing

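Over all genes tested, 1906 passed both thresholds. The count was 877 with limma on log2(FPKM + 1), a scale that understates changes of low genes, and 1271 to 2197 under the other ways of processing. Of the 10 listed genes, 4 passed both thresholds, and 2 did with limma on log2(FPKM + 1), where Sesn1 was under the fold threshold and Ccng1 missed the adjusted p. The fitted difference of Trp53inp1 turned to -0.018 with upper-quartile scaling and -0.017 with library totals. It lay between -0.10 and 0.14 with 1 library left out, below 0 without CTRL replicate 0 or GOF replicate 2. Of 150 values of single listed genes under the alternatives, 140 kept their direction and their side of the threshold, 4 turned in sign (all Trp53inp1), 5 lost the call (all Ccng1) and 1 gained it (Zmat3). With 1 library left out, the fits assume that the remaining libraries of a group vary alike, and 1311 to 1961 genes passed both thresholds. In the same fits, 3 to 5 listed genes passed the adjusted p, 3 to 4 passed both thresholds, and 12 to 15 of the 36 other p53 targets passed the adjusted p. The replicate block by label number, which does not pair the cultures, gave 1421 genes past both thresholds and 3 of the listed genes, without Ccng1 (adjusted p = 0.0763). The replicate block by animal gave 2008 genes, the same 4 listed genes and 19 other p53 targets in place of 14, with Tigar (0.0730) lost. It changed no call of a listed gene, and its differences rest on the animals with both cultures alone. Upper-quartile scaling and library totals moved the median of all genes by less than 0.1 on the log2 scale. A group of 3 libraries limits the precision of every value. Of the 10 listed genes Gdf15 rests on the fewest fragments, and Edaradd rests on 2 to 32 per library.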

Other observations

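Amino acid and unfolded protein stress is another known route to Sesn2 and Gdf15, and 13 of its genes were read from the same fit. Atf3, a stress-induced transcription factor, rose by 1.09 on the log2 scale (adjusted p = 0.0337). Atf4, the central transcription factor of the response, had a log2 difference of -0.50 (adjusted p = 0.0448), and Trib3, one of its targets, of -1.31 (adjusted p = 0.0493). The other 10 did not pass, and the median of the 13 was -0.16 on the log2 scale. Atf3 did not pass without CTRL replicate 1, CTRL replicate 2, GOF replicate 1 or GOF replicate 2 (adjusted p = 0.0826 to 0.108). Atf4 passed in the fit without CTRL replicate 0 and in no other fit with 1 library left out (0.0597 to 0.158). Atf4 also did not pass with limma on log2(FPKM + 1) (0.0577) or log2(FPKM + 0.1) (0.0585), or with no filter on low counts (0.0527). Trib3 passed without GOF replicate 1 or GOF replicate 2 and in no other fit with 1 library left out (0.0775 to 0.146). With a minimum FPKM of 1 in 3 libraries Trib3 did not pass (0.0531). With the replicate block by label number, Atf3, Atf4 and Trib3 did not pass (0.0559 to 0.177).

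The promoter windows of 300 bases, 250 before and 50 after each RefSeq start, were searched for CTTTGAT, the core letters of the Tcf/Lef motif through which β-catenin acts, on both strands. None of the 9 windows of the 7 listed genes with an entry held it, and 3.73% of all 32851 windows did. Their GC content was 50.3% to 71.7%, beside a median of 52.7% for all windows. No match says only that these letters are not in these windows. Nkd2, a feedback gene of Wnt signaling, had a log2 difference of 4.66 (adjusted p = 5.45e-05) in the same fit.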
